A study of Mus musculus with 12 samples.

Results

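The CCN genes encode a small family of secreted matricellular proteins, which sit in the extracellular matrix and change how cells respond to it without building it. All 6 members, Ccn1 (Cyr61), Ccn2 (Ctgf), Ccn3 (Nov), Ccn4 (Wisp1), Ccn5 (Wisp2) and Ccn6 (Wisp3), were measured in day 7 thymic epithelium/stroma. They were taken by symbol, current or older, from 19938 genes that had a probe set with a single gene symbol. Each member had 1 such probe set and 0 shared with another gene, so the rule of taking the brightest probe set per gene left nothing to choose. The family came into view because Ccn6 had been selected on these arrays for its sex difference, so the levels of Ccn6 by sex are given as a description. The authors counted Ccn6 among the genes with a significant sex difference on the arrays, a call that the fit below did not give. By quantitative RT-PCR in a new set of males and females, the authors also found Ccn6 higher in females. Those measurements are not part of the arrays described here.

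The 12 arrays, which cover whole transcripts, came from 4 genotypes: 2 arrays from XY males (XYM), 4 from XX males (XXM), 3 from XY females (XYF) and 3 from XX females (XXF). All pups were FCG mice on a C57BL/6J background, 7 days old, for which the labels give no drug or hormone treatment. FCG mice separate gonads from sex chromosomes: the Y chromosome, where present, lacks Sry, the testis-determining gene, and the males of both kinds carry Sry as an autosomal transgene. "Male" and "female" therefore refer to gonads, and XY and XX to the sex chromosome complement. Published work on the model gives several copies of the transgene, which limits its males as a model of wild-type males. The tissue was what remained after the thymocytes had been washed out, and the labels do not say if an array stands for a single pup or a pool. All p-values therefore measure the spread between these arrays, which may be technical.

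Xist and Eif2s3y separated all 5 XY arrays from all 7 XX arrays, and Sry separated all 6 arrays of males from all 6 of females. All 10 thymic epithelium markers had a signal above 309.5, and so had all 8 fibroblast markers. That level, called the silent-gene level here, is the 95th percentile of 1035 probe sets of olfactory receptors, which are largely silent outside the nose. Also above it were all 9 thymocyte markers measured, of 10 listed, whose summed signal was 30963 to 35759 over the 12 arrays, so the washed tissue still gave strong thymocyte signals. The level was passed by 7 of 7 pericyte and smooth muscle, 7 of 7 endothelial, 6 of 8 macrophage and dendritic cell, 3 of 7 cartilage, 3 of 5 skeletal muscle, 2 of 5 fat cell, 1 of 4 B cell and 0 of 4 erythroid markers. In such bulk tissue, fewer cells of a type and less RNA per cell cannot be told apart. A signal above the silent-gene level does not prove expression. The Sry probe set had 415.8 to 564.5 in females, which lack Sry, and 2524 to 2836 in males. The 12-array means of Ccn1, Ccn2, Ccn3 and Ccn5, 499 to 525, lay within that range of females. Every array in the labels has a number, 1 to 12, and arrays 1 to 4, 5 to 8 and 9 to 12 are called array sets here, each with 2 arrays of males and 2 of females. What the numbers stand for is not given in the sources used here. The cut into sets was made after arrays 9 to 12 had been seen to stand apart over all genes, so the tests of array sets describe these arrays.

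CCN proteins share a modular structure that begins with a domain related to the insulin-like growth factor binding proteins, and they act mostly through integrins and heparan sulphate proteoglycans. Ccn1 and Ccn2 are quickly induced by serum, stretch and growth factors, and they are much used readouts of YAP and TAZ, the co-activators that the Hippo kinases restrain and that bind DNA through TEAD factors. Ccn3 often opposes the growth effects of its relatives and can bind Notch. Ccn4 and Ccn5 were first described as genes induced by Wnt1, and Ccn5 lacks the C-terminal domain of the others. Loss of human CCN6 causes a childhood disease of joint cartilage, progressive pseudorheumatoid dysplasia.

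Promoter sequence from RefSeq was matched for 2 of the 6 members, Ccn1 and Ccn6. Ccn1 is a classical TEAD target whose signal varied most over these arrays, and Ccn6 is the member selected for its sex difference. Only these 2 sequences are shown, because none was matched for the other members. Each is the 250 bases before the gene's start, in build GRCm38.p6, 5′ to 3′ on the gene's own minus strand, and capitals mark the motifs found.
Ccn1 (chr3:145649986-145650235): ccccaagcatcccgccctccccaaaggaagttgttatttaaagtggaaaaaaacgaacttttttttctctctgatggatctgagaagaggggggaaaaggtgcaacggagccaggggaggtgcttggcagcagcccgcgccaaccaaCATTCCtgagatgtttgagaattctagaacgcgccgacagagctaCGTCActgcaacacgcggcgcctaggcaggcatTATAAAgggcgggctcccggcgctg
Ccn6 (chr10:39163795-39164044): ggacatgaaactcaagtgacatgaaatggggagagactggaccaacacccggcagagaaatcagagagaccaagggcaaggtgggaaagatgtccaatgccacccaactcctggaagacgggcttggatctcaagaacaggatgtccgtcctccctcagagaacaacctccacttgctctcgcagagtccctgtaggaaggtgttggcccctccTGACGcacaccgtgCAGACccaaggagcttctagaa

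The Ccn1 window held the TEAD motif GGAATG on its other strand, at -103 to -98 counted from the start, where it reads as the first run of capitals. GGAATG was in 12.6% of the 32851 mouse promoter windows of this length. It also held the cyclic AMP response half-site TGACG on the other strand, at -58 to -54 (in 17.8% of windows), and the TATA box TATAAA at -25 to -20 (in 7.59%). The Ccn6 window held TGACG at -36 to -32 and the SMAD motif CAGAC at -22 to -18, and CAGAC was in 42.2% of windows. Neither window held AACAAT, a core motif of SRY and SOX factors, which was in 9.42% of windows, or the AP-1 motif TGANTCA, which was in 6.75%. The windows end 250 bases before the start, and sequence further upstream was not searched. A potential Sry/Sox element that the authors name in the Ccn6 (Wisp3) promoter lies, by their numbering, in that unsearched stretch. The absence of AACAAT here does not bear on it. All motifs but TATAAA were searched on both strands and none of the matches overlapped. The GC content was 54.8% in both windows, against a median of 52.4% over all windows. A match describes these letters only, and was not tested as a binding site.

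Ccn1 had the widest spread of the 6. Ccn1, the matricellular angiogenic factor also known as Cyr61, had a signal of 751.7 and 370.7 in XYM, 524.7, 502.2, 485.1 and 412.7 in XXM, 605.8, 413.8 and 486.9 in XYF, and 722.8, 356.8 and 352.1 in XXF. The 4 highest arrays were arrays 1 to 4, 1 of each genotype, a separation from the other 8 found for 2.5% of all probe sets. Males and females overlapped almost entirely. The highest array was 2.14 times the lowest. The standard deviation of Ccn1 over the 12 arrays, 0.37 on the log2 scale, was higher than that of 99.0% of the 9096 probe sets whose mean signal was within 1.5-fold of its own. Ccn1 averaged 508 ± 133 in males and 490 ± 148 in females (SD, n = 6 each).

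Ccn2, connective tissue growth factor, is a mediator of fibroblast activation and matrix production downstream of TGF-β. Its signal was 602.3 and 421.8 in XYM, 491.1, 536.8, 691.3 and 646.4 in XXM, 507.3, 462.7 and 501.5 in XYF, and 591.0, 437.3 and 406.3 in XXF. XXM arrays 6 and 10 were the highest, and 3 of the 6 male arrays were above all females, while the other 3 lay among them. Ccn2 averaged 565 ± 101 in males and 484 ± 64.8 in females (SD, n = 6 each).

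Ccn3, which is known to restrain fibrosis and proliferation in several tissues, had a signal of 574.3 and 446.3 in XYM, 507.6, 552.7, 699.6 and 468.4 in XXM, 623.5, 477.0 and 401.8 in XYF, and 617.0, 517.9 and 414.2 in XXF. In each genotype its lowest array was one of arrays 9 to 12. It averaged 542 ± 91.4 in males and 509 ± 96.3 in females (SD, n = 6 each).

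Ccn4, a Wnt-induced gene of osteoblasts and activated fibroblasts, had a signal of 244.5 and 316.9 in XYM, 251.2, 270.1, 299.8 and 327.2 in XXM, 246.2, 240.4 and 270.9 in XYF, and 235.0, 249.8 and 270.6 in XXF. The 3 highest arrays, XXM 10, XYM 9 and XXM 6, were of males, and the other 3 male arrays lay among the females. Ccn4 averaged 285 ± 34.7 in males and 252 ± 15.2 in females (SD, n = 6 each). Its mean over 12 arrays, 269, was below the silent-gene level of 309.5, so its signal is not told apart from that of largely silent genes.

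Ccn5, which lacks the C-terminal domain and is known to restrain smooth muscle growth, had a signal of 453.4 and 608.2 in XYM, 447.6, 540.8, 588.3 and 614.4 in XXM, 459.6, 540.0 and 570.8 in XYF, and 435.4, 482.6 and 540.4 in XXF. The lowest array of every genotype was one of arrays 1 to 4, whose 4 values, 435.4 to 459.6, were all below the other 8, as was the case for 7.12% of all probe sets. It averaged 542 ± 75.5 in males and 505 ± 53.3 in females (SD, n = 6 each).

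Ccn6, for which a role in the thymus is not established, had a signal of 243.0 and 271.8 in XYM, 303.9, 267.6, 252.5 and 308.8 in XXM, 324.9, 343.5 and 304.0 in XYF, and 298.1, 330.1 and 336.9 in XXF. Both XYM arrays were below all 3 XYF arrays, as was the case for 7.8% of all probe sets, whereas XXM and XXF overlapped, since 2 of the 4 XXM arrays (303.9 and 308.8) lay above XXF array 3 (298.1). Its mean over 12 arrays, 299, was also below the silent-gene level. The XYM mean was 257 and the XXM mean 283, against 324 in XYF and 322 in XXF, so the means of the 2 female genotypes differed by less than the spread of either.

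**Figure D1:**
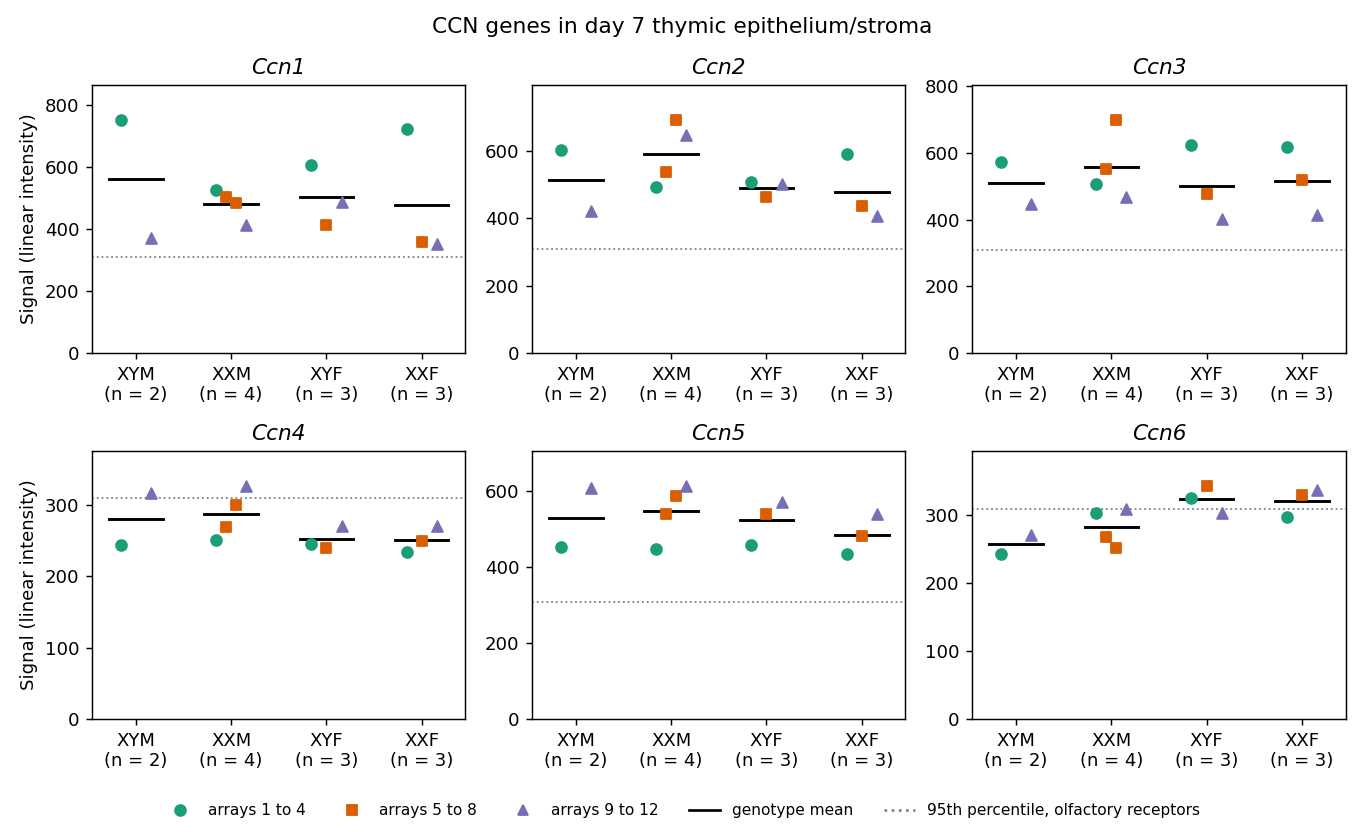
Signal (linear intensity) of each CCN gene on the 12 arrays, by genotype from XYM to XXF. Points are single arrays with colour and shape for the array set, black lines are genotype means and the dotted line is the silent-gene level of 309.5, taken from olfactory receptors. Ccn6 lies lowest in the male genotypes, and in each genotype arrays 1 to 4 hold the highest Ccn1 and the lowest Ccn5 value, and arrays 9 to 12 the lowest Ccn3 value.

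To ask whether gonadal sex or the sex chromosomes were associated with CCN expression, log2 signals were fitted in a model of the 4 genotypes with limma, with Benjamini-Hochberg adjustment across the 35556 probe sets. For gonadal sex, 0 of the 6 members passed an adjusted p of 0.05, as did 0.00281% of all probe sets (1 of 35556). At an unadjusted p under 0.05 the count was 1 of 6, the preselected Ccn6, which was lower in males, as were 1.41% of all probe sets. The same model without moderation of the variance also gave 0 and 1.

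The log2 difference of Ccn6, males minus females, was -0.26 ± 0.07 (SE, limma, adjusted p = 0.985), a ratio of 0.835. It was -0.33 ± 0.11 between XYM and XYF and -0.19 ± 0.09 between XXM and XXF. The interaction of sex and chromosome complement was -0.15, with a 95% interval of -0.47 to 0.18, so the arrays do not resolve whether the sex difference depends on the chromosomes. Over all probe sets, the median sex difference was 0.003 and the median absolute difference 0.063. Of the genes in the 11 lists of cell type markers, 0 passed the adjusted p for sex. For males minus females 5 lists lay on one side of 0, while 51.3% of all probe sets were above 0. All 8 fibroblast markers (median 0.06), 7 cartilage markers (0.10), 5 skeletal muscle markers (0.09) and 4 B cell markers measured (0.13) were above 0, and 0 of 7 endothelial markers were (-0.10). Only 3 of the 7 cartilage, 3 of the 5 skeletal muscle and 1 of the 4 B cell markers passed the silent-gene level. Genes of a list share tissue makeup, so they are not independent of each other. Ms4a1 among the B cell markers had 0.25 (limma, adjusted p = 0.985), at a signal of 148, below the silent-gene level. Over the 12 arrays the B cell list had r = -0.68 with Ccn6, a description of arrays that share tissue makeup and scaling. Other lists came close, such as serum response factor genes (-0.61) and TGF-β response genes (-0.56), while thymocyte markers had 0.32. After the mean of each array set was taken off, the B cell list had -0.70 and the cartilage list -0.72. The part of these lists in the values of the members was not tested.

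The other 5 members all had positive point estimates for males minus females, none of them past the test. Leaving out XYM array 1 turned the sign for Ccn1 (-0.16) and Ccn3 (-0.015), and leaving out XYM array 9 turned it for Ccn5 (-0.017). Ccn2 had 0.18 (95% interval -0.11 to 0.46), or 0.048 without XYM array 1 and 0.30 without XYM array 9, and its exact permutation p over all groupings of the arrays was 0.145 (two-sided). Within genotypes of one chromosome complement it was 0.04 between XYM and XYF and 0.31 between XXM and XXF. Ccn4 had 0.16 (-0.03 to 0.36), or 0.26 without XYM array 1 and 0.070 without XYM array 9, with an exact permutation p of 0.0671. Ccn1, Ccn3 and Ccn5 had differences of 0.08 to 0.09 with exact permutation p of 0.353 to 0.753. The interval of Ccn1, -0.38 to 0.57, was the widest of the 6.

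Within array sets, the difference between the 2 male and the 2 female arrays held its sign in all 3 sets for Ccn4 and Ccn6. The sign also held for Ccn5, with a value close to 0 on arrays 1 to 4. The share of all probe sets that held their sign was not taken, so these signs are a description. For Ccn4 the difference was 0.04 on arrays 1 to 4, 0.22 on arrays 5 to 8 and 0.25 on arrays 9 to 12. For Ccn5 these values were 0.01, 0.14 and 0.14. For Ccn2 they were -0.01, 0.44 and 0.21, and for Ccn3 -0.20, 0.32 and 0.16. Ccn1 had -0.08, 0.36 and -0.08. On arrays 5 to 8, both males were XXM, so sex and chromosome complement are not balanced there. Ccn6, with the opposite sign, had its widest gap on the same arrays, 252.5 and 267.6 in males and 330.1 and 343.5 in females.

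With array sets as a block in the fit, 0 members passed the adjusted p for sex. At an unadjusted p under 0.05 the count was 2 of 6. The first was Ccn4, higher in males (0.16 ± 0.05, SE, limma, adjusted p = 0.386), as 7.75% of probe sets were. The other was Ccn6, lower in males, as 3.79% were. Ccn6 had been selected for its sex difference on these arrays, so its place in this count is no independent result.

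**Figure D2:**
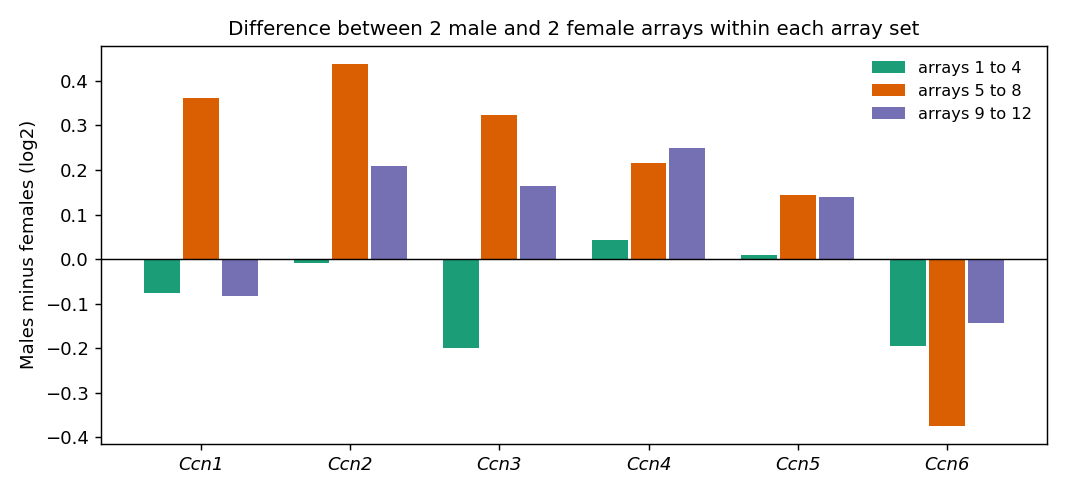
Mean log2 signal of the 2 male arrays minus that of the 2 female arrays (y axis) for each CCN gene within arrays 1 to 4, 5 to 8 and 9 to 12. Bars are single differences without error; those of Ccn6 are below 0 in each set (lowest on arrays 5 to 8), while those of Ccn1, Ccn2 and Ccn3 change sign.

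For chromosome complement, 0 of 6 members passed the adjusted p, against 0.0366% of all probe sets (13 of 35556), and 0 of 6 had an unadjusted p under 0.05 by limma, with or without moderation. The difference, XY minus XX, was 0.14 (95% interval -0.33 to 0.62) for Ccn1, -0.08 (-0.36 to 0.20) for Ccn2 and -0.09 (-0.41 to 0.24) for Ccn3. It was -0.02 (-0.21 to 0.18) for Ccn4, 0.03 (-0.21 to 0.27) for Ccn5 and -0.06 (-0.22 to 0.10) for Ccn6. The exact permutation p, two-sided over all groupings, was 0.472 to 0.904 for the 6 members. Of the cell type lists, thymocyte markers (0 of 9 above 0, median -0.12) and endothelial markers (7 of 7, 0.14) lay on one side of 0. Over all probe sets, 52.6% were above 0. Fibroblast markers had 1 of 8 above 0 (-0.16). In these lists 0 markers passed the adjusted p, and their part in the values of the members was not tested. For the interaction, 0 of 6 members passed the adjusted p, as did 0% of all probe sets, and 0 of 6 had an unadjusted p under 0.05.

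**Figure D3:**
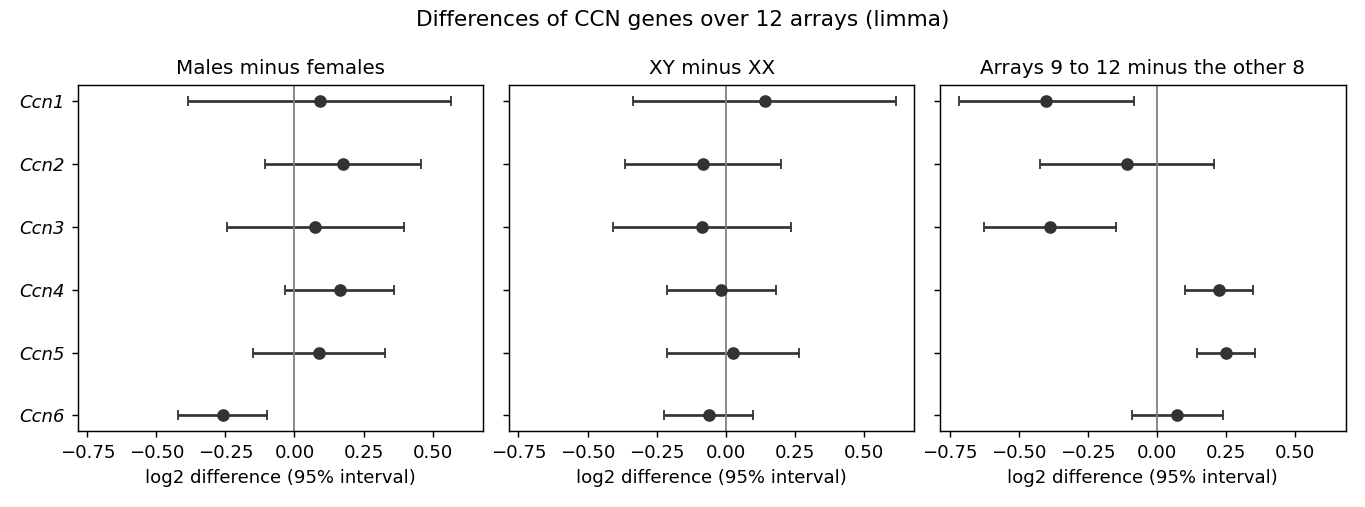
Log2 differences of the 6 CCN genes from limma with 95% intervals (x axes), for males minus females, XY minus XX, and arrays 9 to 12 minus the mean of the other array sets, over 12 arrays. For sex, the interval of Ccn6 lies below 0 (-0.42 to -0.10, not past the adjusted p), for chromosome complement all 6 intervals cross 0, and for array sets those of Ccn4 and Ccn5 lie above 0 and those of Ccn1 and Ccn3 below it.

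Several members differed between the array sets. In a fit of genotype and array set, 3 of 6 members passed the adjusted p for arrays 9 to 12 against the mean of the other 2 sets. Ccn4 and Ccn5 were higher on arrays 9 to 12, as were 15% of all probe sets, and Ccn3 was lower, as were 10.8%. Ccn3 had a difference of -0.39 ± 0.11 (SE, adjusted p = 0.0316). Its signal was 446.3 (XYM), 468.4 (XXM), 401.8 (XYF) and 414.2 (XXF) on arrays 9 to 12, all below the other 8, which ran from 477.0 to 699.6, a separation found for 5.82% of all probe sets. Ccn5 had a difference of 0.25 ± 0.05 (adjusted p = 0.0122) and Ccn4 of 0.22 ± 0.05 (adjusted p = 0.0222), each with 2 of 4 arrays above all the others. Ccn1 had a difference of -0.40 ± 0.14 (adjusted p = 0.0628), Ccn2 of -0.11 ± 0.14 (0.564) and Ccn6 of 0.07 ± 0.07 (0.455).

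Which members passed the adjusted p changed when single arrays were left out, while the differences stayed at -0.43 to -0.34 for Ccn3, 0.20 to 0.25 for Ccn4 and 0.24 to 0.27 for Ccn5. The count was 0 of 6 without XXM array 10 and 1 of 6 without XYM array 1, XYM array 9 or XYF array 12, the remaining call then being Ccn5.

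Ccn1 differed mainly between the first set and the rest. It averaged 651 on arrays 1 to 4, 439 on arrays 5 to 8 and 406 on arrays 9 to 12. The log2 difference of arrays 9 to 12 from arrays 1 to 4 was -0.68 ± 0.16 for Ccn1 (adjusted p = 0.0146), and 13% of all probe sets were called lower. Ccn5 ran the other way over the same sets, with means of 449, 538 and 583, and a difference of 0.38 ± 0.05 (adjusted p = 0.00634), while 23.2% of all probe sets were called higher.

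The direction of array set differences changed with signal over the whole array. Among probe sets with a mean signal of 100 to 200 the median difference of arrays 9 to 12 from the other 8 was 0.14, and 80.2% were above 0. Among those of 200 to 400, the range of Ccn4 and Ccn6, it was 0.10 with 67.6% above 0, and among those of 400 to 800, the range of the other 4 members, it was -0.03 with 44.2% above 0. The olfactory receptor probe sets themselves were higher on arrays 9 to 12, with a median of 0.20. Set against probe sets within 1.5-fold of its own signal, Ccn4 was at the 80.3rd percentile of this difference and Ccn5 at the 92.9th. Ccn1 and Ccn3 were at the 1.95 and 2.01 percentiles. Summed thymic epithelium markers were 19045 to 21828 on arrays 9 to 12, 20554 to 23752 on arrays 5 to 8 and 22564 to 25378 on arrays 1 to 4. Ccl25 (signal 7107) and Krt8 (6433) were the brightest genes in these sums. Of the 10 epithelium genes, 4 were lower on arrays 9 to 12, Epcam (-0.50), Krt8 (-0.32), Trp63 (-0.22) and Krt5 (-0.21), and 0 were higher. Of all probe sets 10.8% were lower and 15% higher. Trp63 (signal 978) lay at 800 to 1600, where 34.2% of probe sets were above 0. Krt8 and Krt5 (1717) lay at 1600 or higher, where 32.6% were. After a renewed quantile normalization, Epcam, Krt8 and Trp63 still passed as lower. Krt5 did not (limma, adjusted p = 0.0860), and Cldn4 passed as higher (0.17, adjusted p = 0.0452). Fibroblast markers had a median difference of -0.21, with 2 of 8 above 0. Of these markers 1 of 8, Dcn (-0.40), passed as lower, but not after the same normalization (limma, adjusted p = 0.0710). Their summed signal was 9542 to 14386 on arrays 9 to 12, 10561 to 14442 on arrays 5 to 8 and 10524 to 14657 on arrays 1 to 4, and the list had r = 0.64 with Ccn3 over the 12 arrays. Summed cartilage markers ran the way of Ccn4 and Ccn5, with 2001 to 2337 on arrays 9 to 12, 1969 to 2128 on arrays 5 to 8 and 1823 to 1993 on arrays 1 to 4. Acan, Comp, Matn1 and Matn3 among them were below the silent-gene level. The part of these shifts in the CCN values was not tested.

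**Figure D4:**
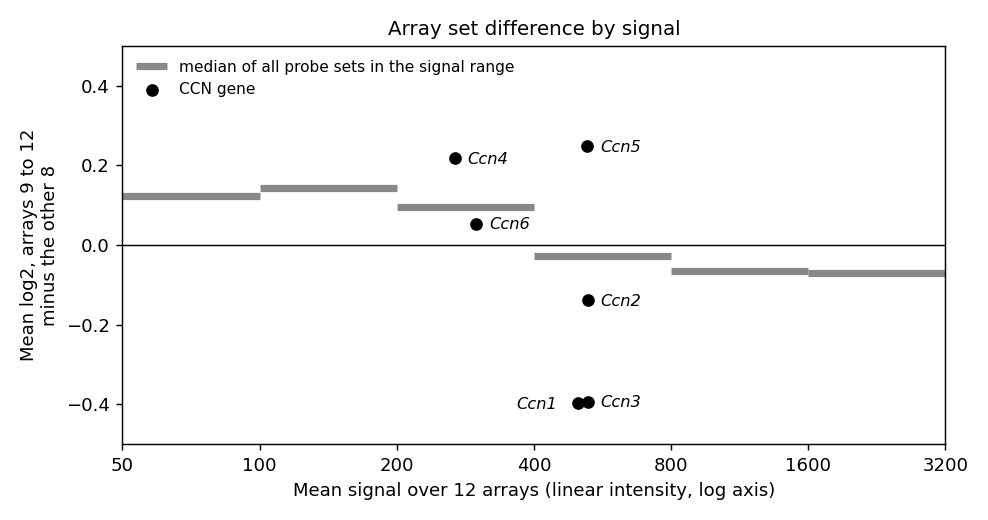
Mean log2 signal on arrays 9 to 12 minus that on the other 8 arrays (y axis) against mean signal (x axis, log scale). Grey lines are medians of all probe sets in 6 ranges of signal, the outer ones standing for below 100 and for 1600 or higher, and points are the 6 CCN genes. Ccn5 lies above 0 and Ccn1, Ccn2 and Ccn3 below it in the same range of signal, where the median is -0.03.

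The genes whose values were most like those of a member over the 12 arrays were named by Pearson correlation of log2 signals with 14449 named genes of mean signal 200 or higher. These correlations describe 12 arrays that share array sets, tissue makeup and one scaling, and carry no test. Ccn1 was most like Jun (r = 0.96), Notch2 (0.94) and Egr1 (0.93). Jun and Egr1 are immediate early transcription factors, as Ccn1 is itself an immediate early gene. Jun had a signal of 870.4 in XYM, 634.4 in XXM, 738.8 in XYF and 847.7 in XXF on arrays 1 to 4, the same order over these 4 arrays as Ccn1. On the other 8 arrays Jun was at 432.3 to 628.9. The mean of the 15 listed immediate early genes followed Ccn1 with r = 0.83, both as measured and after the mean of each array set was taken off. Other lists were about as close. In the same order, CCN receptors and co-receptors had 0.81 and 0.80, TGF-β response genes 0.69 and 0.84, and macrophage and dendritic cell markers 0.83 and 0.53. With set means off, the genes most like Ccn1 were Tpm2, a tropomyosin (0.92), Fap, a protease of activated fibroblasts (0.90), and Col1a1, a chain of type I collagen (0.90). The mean signal of Fap, 290, was below the silent-gene level.

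Ccn2 was most like Lrp1 (r = 0.93), a low density lipoprotein receptor relative that binds and takes up Ccn2, then Mtus1 (0.92) and Antxr1 (0.91), a collagen-binding receptor of stroma. Lrp1 was highest on XXM array 10 (1315) and XXM array 6 (1284), the 2 arrays on which Ccn2 was highest too. With set means off, Pcbp4 (0.98), Galnt16 (0.94) and Eln (0.94), the gene of elastin, came first. Galnt16, with a mean signal of 288, was below the silent-gene level. Eln had 4568 and 4972 on XXM arrays 6 and 10, against 804.4 to 1621 on the other 10 arrays. Of 21 gene lists compared, the one closest to Ccn2 was that of serum response factor, its partners and contractile targets, with r = 0.92 over 11 genes, and 0.96 with set means off. Fibroblast markers (8 genes) had r = 0.88 in both. Among the contractile genes, Acta2, smooth muscle actin, had 2362 on XXM array 6 and 719.4 to 1423 on the others, 1028 of these on XXM array 10. The share of contractile or fibroblast tissue in the values of Ccn2 was not tested.

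Ccn3 was most like Rasal2, Rhobtb3 and Setbp1 (r = 0.93 each). Ccn4 was most like Bsn, the olfactory receptor Olfr796 and Hspb2 (0.95 each), and Ccn5 like Gm12863, the olfactory receptor Olfr938 and the microRNA gene Mir7-2 (0.97 each). The 3 genes nearest to Ccn4 and the 3 nearest to Ccn5 all had a mean signal below the silent-gene level of 309.5. Ccn6 was most like Kif18b (0.88), Oip5 (0.87) and Foxm1 (0.85), a kinesin, a centromere protein and a transcription factor, all of dividing cells. With set means off, Insyn2b (0.96) and the DNA repair and checkpoint genes Fancd2 (0.94) and Hus1 (0.92) came first. Fancd2 had 700.1 and 651.9 in XYM, 870.0, 711.5, 661.4 and 700.4 in XXM, 828.1, 833.9 and 696.3 in XYF, and 769.6, 833.5 and 730.9 in XXF. Its highest value came from a male, XXM array 2, whose Ccn6 signal was also among the higher ones of males.

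**Figure D5:**
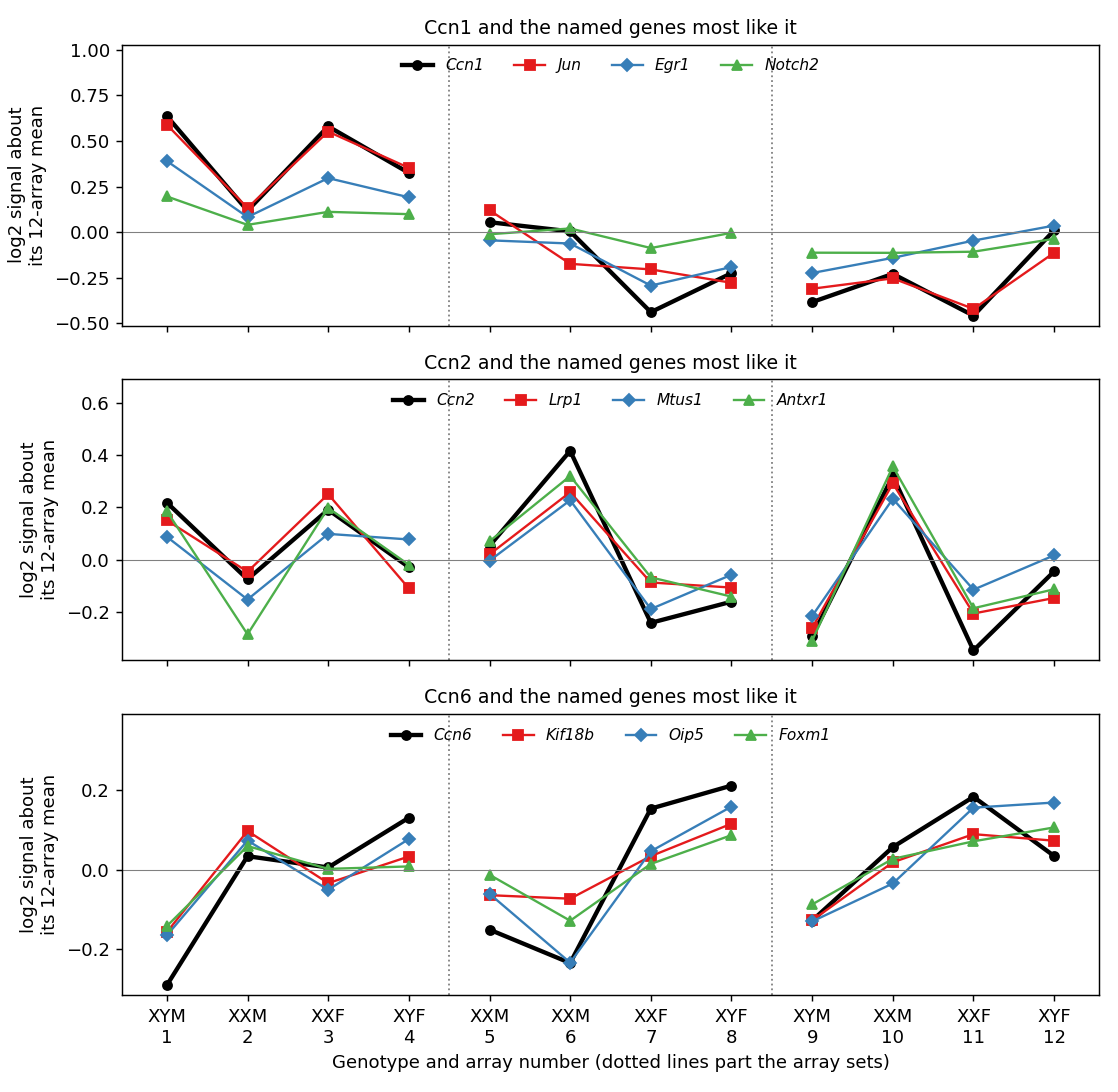
Log2 signal about its own 12-array mean (y axes) of Ccn1, Ccn2 and Ccn6 (black) and the 3 named genes most like each as measured, on arrays 1 to 12 in order, with dotted lines between array sets and points for single arrays. Ccn1, Jun and Egr1 are highest on arrays 1, 3 and 4, Ccn2 and Lrp1 on XXM arrays 6 and 10, and Ccn6 is lowest on XYM array 1, with Kif18b.

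Among the members, Ccn4 and Ccn5 were the most alike as measured (r = 0.86), and Ccn6 had a negative correlation with each of the other 5 (-0.57 to -0.09). With set means off, all 10 pairs among Ccn1 to Ccn5 were positive (0.12 to 0.79), and all 5 pairs with Ccn6 were negative (-0.61 to -0.52). Ccn1 and Ccn5 changed most, with -0.65 as measured and 0.39 with set means off.

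The partners of the family showed no call for sex or chromosome complement. Of 16 CCN receptors and co-receptors, 0 passed the adjusted p in either comparison, and 0 had an unadjusted p under 0.05. The brightest were Notch1 (signal 3775), a partner of Ccn3, the integrin chain Itgb1 (1879) and the Wnt co-receptor Lrp6 (1799), whose sex differences were 0.01, 0.03 and 0.02 on the log2 scale. Of the 15 Hippo pathway genes and TEAD partners measured, 0 passed, with a median sex difference of -0.02. Among 20 YAP and TAZ response genes, 0 passed, and 10 of 20 were above 0 for sex. Of these 20 genes, 12 had a mean signal above the silent-gene level. Ankrd1, often induced together with Ccn1 and Ccn2, had a sex difference of 0.37 ± 0.28 (SE). Its signal, 229, was below that level. Among 15 immediate early genes, 0 passed, and Fos had an unadjusted p of 0.0176 for sex (limma, difference 0.21, mean signal 176, adjusted p = 0.985). The counts past the adjusted p were also 0 for 11 serum response factor genes, 6 TGF-β response genes, 7 Wnt response genes, 11 insulin-like growth factor binding proteins and relatives, 8 growth factors that CCN proteins bind and 12 other matricellular proteins.

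Between array sets, some of the partners passed the test, in both directions. The counts are read against the 10.8% of all probe sets that were lower on arrays 9 to 12 and the 15% that were higher. These shares cover all signals, and none was taken at like signal. Of probe sets with a signal of 800 to 1600, 34.2% were above 0 for this difference, and of those at 1600 or higher 32.6%. On arrays 9 to 12, 5 of 16 receptors were lower and 2 higher. Fgfr2 (signal 1356), Lrp6 (1799) and Itgb1 (1879) lay in these bright ranges. The keratinocyte growth factor receptor Fgfr2 had -0.26 (adjusted p = 0.0150), Lrp6 -0.22 (0.0143) and Itgb1 -0.17 (0.0385), while the 2 that were higher, Itgb6 (0.25, signal 145) and Itga2b (0.20, signal 244), were below the silent-gene level. Of the Hippo genes, Mob1a (-0.19) and Mob1b (-0.22), adaptors of the LATS kinases, were lower, 2 of 15, and 1 was higher, Tead4 (0.16), at a signal of 277, below the silent-gene level. Among other matricellular genes, Tnc, tenascin C, had -0.41 (adjusted p = 0.00695) and Thbs2, thrombospondin 2, -0.40 (0.0320), 2 of 12 lower and 0 higher. Of the 15 immediate early genes 2 were lower, among them Dusp1 (-0.28, adjusted p = 0.00973), and 2 were higher, Btg2 (0.22) and Zfp36 (0.24), shares close to those of all probe sets. A renewed quantile normalization turned none of these directions, but only Fgfr2, Lrp6, Tnc, Dusp1, Btg2 and Zfp36 of the genes named here still passed, and the 2 receptors that had been higher no longer did.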

How the data were processed

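Total RNA of day 7 thymic epithelium/stroma was hybridised to 12 Affymetrix Mouse Gene ST arrays. The authors deposited 1 linear intensity for each of 35556 probe sets and array. For its making, the submitters' processing notes list PLIER and Affymetrix Expression Console 1.1, whereas RMA with quantile normalization is described in the methods; which one applies was not settled. The array medians were 327.5 to 345.5. No build of the arrays was given in the sources used here. Symbols were taken from the array annotation (21789 probe sets with 1 symbol, 1621 with several, 12146 with none), updated through RefSeq (GRCm38.p6), which also gave the promoters.

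R 4.3.3 with limma 3.58.1 (lmFit, eBayes) was used to fit log2 intensities on the 4 genotypes, with Benjamini-Hochberg adjustment over all probe sets and a threshold of 0.05. Array sets were compared in a fit of genotype plus set. Means and SDs are linear. Exact permutation tests were two-sided and compared plain group means, so their differences can depart slightly from the fitted ones. Two-sided intervals are 95%. Scripts were tested on simulated data. Figures used matplotlib 3.10.9. The number of arrays limits the precision, and no detection call was used.

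The members, gene lists and tests were chosen with earlier results of these data known. Genes were named by rule: all members, from each list up to 3 of highest signal and up to 2 of lowest p per comparison, and 3 genes most like each member. Lists of markers of 11 cell types were also fixed. The alternatives were a signal minimum of 200, an offset of 16 added before log2, a renewed quantile normalization, probe sets with 1 symbol, an additive model, array sets as a block, trend and robust moderation, two-way ANOVA, array weights, averaging all probe sets of a gene, array sets without genotype, and leaving out each array.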

Additional observations from a re-analysis of the deposited data

How the results depend on the processing

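The counts of members past the adjusted p for sex, chromosome complement and interaction were 0 under every alternative run. The sex difference of Ccn6 stayed between -0.28 and -0.25 under the 10 alternatives that kept all arrays and between -0.30 and -0.22 when single arrays were left out. Leaving out 1 array turned the direction of the small differences of several members. The sex difference ran from -0.16 to 0.35 for Ccn1, from -0.015 to 0.17 for Ccn3 and from -0.017 to 0.19 for Ccn5. The chromosome difference ran from -0.11 to 0.40 for Ccn1, from -0.21 to 0.047 for Ccn2, from -0.18 to 0.0058 for Ccn3, from -0.11 to 0.077 for Ccn4 and from -0.078 to 0.13 for Ccn5. The cause was not tested. With array sets as a block, 4105 probe sets had an unadjusted p under 0.05 for sex, against 1076 without it. No paired analysis was possible because no array number occurs in 2 genotypes.

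For arrays 9 to 12 against the others, the count of members called was 0 to 4 when single arrays were left out, with XYM arrays 1 and 9 giving the same fit, as the other XYM array is then fitted exactly and assumed to vary like the other genotypes. It was 2 of 6 after a renewed quantile normalization, under which Ccn4 had 0.16 (adjusted p = 0.0598; 0.0115 to 0.0981 over all its alternatives) and 45% of all calls were higher, against 58.2% as deposited. It was 4 of 6, with Ccn1 added, under the signal minimum, with 1-symbol probe sets, without genotype, and with trend and robust moderation.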
